A study of Eleusine coracana with 4 samples.

Results

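The salt response that both finger millet genotypes had in common was taken from all 4 of the 4 leaf libraries. The salt group held 1 library of CO12 and 1 of Trichy 1, from plants given NaCl to 300 mM at the 4-leaf stage, 20 days after sowing. The control group held 1 library of each genotype, from pots that stayed well watered. The RNA came from the uppermost young, fully expanded leaves, was depleted of ribosomal RNA and was read on an Ion Proton. How many plants stand behind a library is not given in the sources used here, and the labels do not say which genotype is the tolerant one of the title. Genotype was the block, so each genotype served as 1 replicate of the salt contrast and p-values measure the spread of the salt response between these 2 pairs of libraries, moderated over all loci.

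Of the 55986 loci in each table, 1066 had 20 or more reads in at least 1 library and were tested, all with identifiers of the LOC_Os form used for rice loci. Lengths and chromosome numbers belong to these identifiers and are not positions measured in finger millet. Whether reads of several finger millet gene copies were counted at the same locus was not tested. Values are total gene reads scaled to a library of 1000000 (RPM) after TMM scaling, which compares libraries over the bulk of loci. No gene names come with the identifiers, so loci are described by their reads, their unique reads, their chromosome number in the identifier and their neighbours, and no pathway could be assigned. For the same reason the leaf label could not be checked against marker genes.

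Finger millet is a C4 cereal, in which leaf mesophyll and bundle sheath cells divide the work of carbon fixation. Salt reaches a leaf first as a shortage of water and later as sodium. Cereal leaves are known to meet it with abscisic acid signalling, compatible solutes, sodium storage in the vacuole, antioxidant enzymes and chaperones, while photosynthesis and growth slow. These are general facts of the field, and no locus here was assigned to any of them.

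The salt libraries were the shallower ones, with 1831353 (CO12) and 2406821 (Trichy 1) total gene reads, against 6272817 (CO12) and 3347497 (Trichy 1) in control. The 20 loci with the most reads held 95.5% to 96.1% of each library, which left 75465 and 99864 reads for all other loci in the salt libraries and 246448 and 151469 in the control libraries. The floor of 20 reads therefore stood at 11.4 RPM in CO12 salt and 8.69 RPM in Trichy 1 salt, against 3.15 RPM in CO12 control and 5.52 RPM in Trichy 1 control.

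Under salt, 19 loci were called higher and 2 lower by edgeR's quasi-likelihood test at a Benjamini-Hochberg adjusted p under 0.05. Together they were 1.97% of the loci tested (1.78% higher and 0.188% lower). The test is of 1 salt effect over both genotypes together, and the change within each genotype is a description. The 19 higher loci had log2 fold changes from 1.82 to 6.12, with a median of 2.62. Each of the 21 was at least 2-fold apart in the same direction in CO12 and in Trichy 1, and the salt libraries did not overlap the control libraries for any of them. Over all 1066 loci, both salt libraries lay above both control libraries for 25.2% and below them for 26.8%. Of the 59 loci at least 2-fold higher in both genotypes, the 19 included, the response was the larger one in CO12 for 30 and in Trichy 1 for 29. Among the 19 called higher, it was larger in CO12 for 14 and in Trichy 1 for 5, a split that was not tested. Their median gap between the genotypes was 0.50 on the log2 scale. These calls were sensitive to scaling: with library totals 58 loci were called higher and 44 lower, and with median-of-ratios size factors 52 and 19, and all 21 loci were among the calls both times. With totals that left out the 20 most abundant loci edgeR called 0, with 239 at an unadjusted p under 0.05, and the 21 calls were lost. Without genotype as replicate block the count was 29 higher and 9 lower. Without the CO12 salt library 4 were called, all higher, without the Trichy 1 salt library edgeR called 0, with 130 at an unadjusted p under 0.05, without the CO12 control library 36 and 17, and without the Trichy 1 control library 67 and 20.

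**Figure D1:**
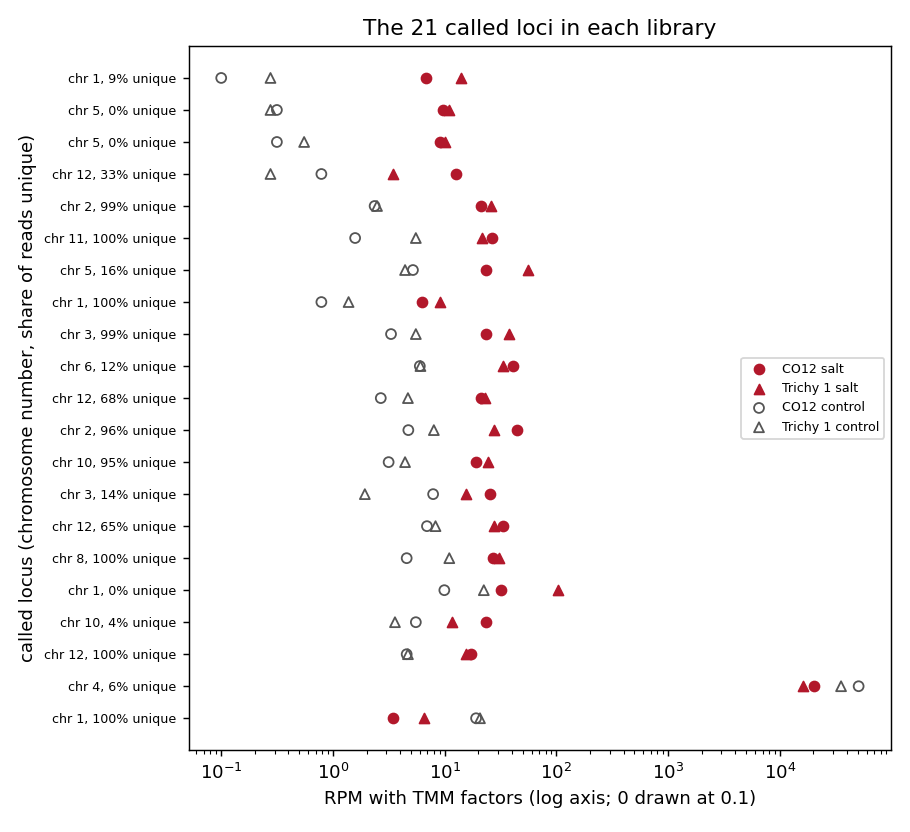
Each row is 1 of the 21 called loci, ordered by log2 fold change, with its RPM in the 4 libraries on a log axis; filled red symbols are salt, open grey symbols control, circles CO12 and triangles Trichy 1. In the 19 upper rows both salt libraries lie right of both control libraries, and in the 2 lowest rows they lie left of them.

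LOC_Os02g41580 on chromosome 2 (1535 bp) was the highest of the called loci whose reads were mostly unique. It had 21.1 RPM in CO12 salt and 26.1 RPM in Trichy 1 salt, against 2.36 RPM in CO12 control and 2.48 RPM in Trichy 1 control, from 37, 60, 15 and 9 reads in that order. The genotypes were close to each other in each condition, and the response was of like size in both. It was 8.94-fold higher under salt in CO12 (95% counting interval 4.79 to 17.5) and 10.5-fold higher in Trichy 1 (5.18 to 24.1). The fitted log2 fold change was 3.25 ± 0.41 (SE, 4 libraries), with an adjusted p of 0.00903 by edgeR. With total and with unique reads this locus reached the floor only in the salt libraries, where it was high. Its calls are therefore not independent of the floor. At a floor of 100 reads it was not tested. Of its reads 99.2% were unique, and with unique reads the log2 fold change was 3.34 (adjusted p = 0.00201). The call was lost with totals that left out the 20 most abundant loci (adjusted p = 0.0524) and without the Trichy 1 salt library (0.107), within a range over all alternatives of 1.37e-08 to 0.107.

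LOC_Os11g26850 on chromosome 11 (3025 bp) came next, with 26.3 RPM in CO12 salt and 21.7 RPM in Trichy 1 salt, against 1.58 RPM in CO12 control and 5.52 RPM in Trichy 1 control. All of its reads were unique: 46 and 50 in the salt libraries and 10 and 20 in the control libraries. At a floor of 100 reads this locus was not tested. The salt libraries were alike and the control libraries were not, so the response was unequal. It was 16.7-fold in CO12 (8.30 to 37.1) and 3.94-fold in Trichy 1 (2.30 to 6.98). The fitted log2 fold change was 2.92 ± 0.52 (SE), with an adjusted p of 0.0272 by edgeR. The call was lost with totals that left out the 20 most abundant loci (adjusted p = 0.0942) and without either salt library (0.142 without CO12, 0.144 without Trichy 1), within a range over all alternatives of 4.52e-07 to 0.144.

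LOC_Os01g55540 on chromosome 1 (5040 bp) was the lowest called locus. This locus reached 20 reads only in the control libraries, where it was high, so its call is not independent of the floor. It had 3.43 RPM in CO12 salt and 6.52 RPM in Trichy 1 salt, against 19.1 RPM in CO12 control and 20.7 RPM in Trichy 1 control, from 6, 15, 121 and 75 reads in that order. The control libraries agreed closely, and both salt libraries lay well under them. Control was 5.56-fold above salt in CO12 (2.48 to 15.5) and 3.17-fold in Trichy 1 (1.81 to 5.95). The fitted log2 fold change was -2.002 ± 0.427 (SE), with an adjusted p of 0.0477 by edgeR, and it was -1.90 with unique reads (adjusted p = 0.0265). The call was lost with DESeq2 (adjusted p = 0.125), over loci with at least 90% unique reads (0.0614), with totals that left out the 20 most abundant loci (0.103) and without either salt library (0.221 without CO12, 0.156 without Trichy 1), within a range over all alternatives of 0.00039 to 0.221.

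LOC_Os04g16770 on chromosome 4 (1168 bp), the other lower locus, is one of the most heavily read loci of these leaves. It took 1.93% of the reads of CO12 salt and 1.54% of Trichy 1 salt, against 5.13% of CO12 control and 3.82% of Trichy 1 control. Control was 2.52-fold above salt in CO12 and 2.19-fold in Trichy 1 after TMM scaling, with a fitted log2 fold change of -1.23 ± 0.24 (SE) and an adjusted p of 0.035 by edgeR. Only 6.1% of its reads were unique, and these gave a log2 fold change of -1.27 (adjusted p = 0.0215). The call was lost with totals that left out the 20 most abundant loci (adjusted p = 0.0824), with no floor (0.0648) and without either salt library (0.102 without CO12, 0.273 without Trichy 1), within a range over all alternatives of 4.98e-06 to 0.273.

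The remaining higher loci spread over the chromosome numbers. By identifier, the 19 lay on 9 of the 12 chromosome numbers, with 4 on chromosome 12, 3 each on chromosomes 1 and 5, and 0 on chromosomes 4, 7 and 9. The loci tested numbered 79 on chromosome 12, 131 and 84 on chromosomes 1 and 5, and 112, 76 and 49 on chromosomes 4, 7 and 9. Over all loci tested 1.78% were called higher, and differences between chromosome numbers were not tested. The 19 loci were read at modest depth, with a mean over libraries from 4.28 to 41.8 RPM and between 8 and 237 reads in a salt library, against 0 to 81 in a control library. In 10 of the 19 at least 50% of the reads were unique, and in 5 under 10% were. By share of unique reads, 8 of the 19 had at least 90%, 2 had 50% to under 90% and 9 had under 50%. Over all 1066 loci tested these numbers were 748, 113 and 205. The largest fold changes belonged to loci with few unique reads. The loci described next reached the floor of reads only in a salt library, where they were high. Their calls are therefore not independent of the floor. The highest, on chromosome 1, had 12 reads in CO12 salt and 32 in Trichy 1 salt, against 0 and 1 in control, with 8.89% unique. A neighbouring pair on chromosome 5 followed. One of them had 17 and 25 reads under salt, against 2 and 1 in control, and the other 16 and 23, against 2 and 2. Neither had a unique read in any library, so reads shared between them cannot be told apart and the pair may not be separate observations.

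Unique gene reads gave the same directions and more calls. Of 877 loci with 20 or more unique reads in a library, 40 (4.56%) were called higher and 12 (1.37%) lower by edgeR, together 5.93%. Both columns called 12 loci, 10 higher and 2 lower, which is 57.1% of the calls from total reads and 23.1% of the calls from unique reads. Of the 21 loci called with total reads, 13 had enough unique reads to be tested. The 40 loci called with unique reads alone all had the same direction in total reads. Across the 877 loci the fold changes of the columns were nearly equal (Pearson's r = 0.995 across loci, which are not independent, and most of whose reads are the same reads), while TMM scaling of unique reads put the median log2 fold change at 0.09, against -0.03 for the same loci in total reads.

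**Figure D2:**
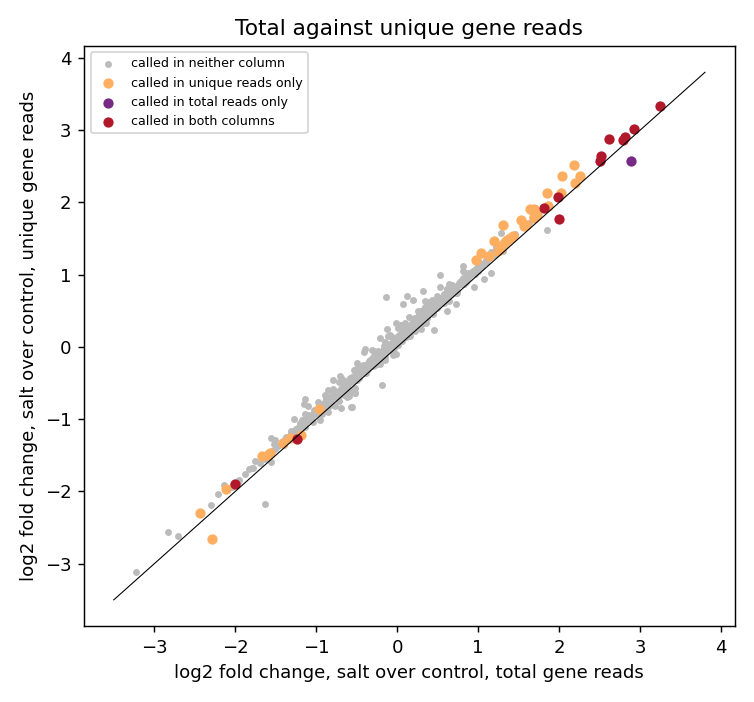
Log2 fold change of salt over control with total gene reads (x axis) and unique gene reads (y axis) for the 877 loci tested in unique reads; colours show in which column a locus was called and the line marks equality. The points follow the line, and the 40 loci called with unique reads only lie outward of most uncalled loci, as do the 12 called in both columns and the 1 called in total reads only.

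Among the loci called in unique reads LOC_Os02g41580 and LOC_Os11g26850 were again the highest, and LOC_Os04g55800 and LOC_Os12g29220 were the lowest. LOC_Os04g55800 on chromosome 4 had 1 unique read in CO12 salt and 3 in Trichy 1 salt, against 39 in CO12 control and 26 in Trichy 1 control (log2 fold change -2.66 ± 0.63 SE, adjusted p = 0.0408 by edgeR). LOC_Os12g29220 on chromosome 12 had 3 and 2 in the salt libraries, against 54 and 19 in the control libraries (-2.30 ± 0.58 SE, adjusted p = 0.0455). Both loci reached the floor of unique reads only in a control library, where they were high. Their calls are therefore not independent of the floor, and their low counts under salt make the size of both changes imprecise. With total reads neither passed the test, with adjusted p = 0.0887 and 0.0651 by edgeR.

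Beyond the called loci, 59 loci (5.53%) exceeded control by 2-fold or more in both genotypes and 50 (4.69%) fell short of it by 2-fold or more in both, while 20 (1.88%) were at least 2-fold apart in opposite directions. The balance turned with scaling, to 50 higher and 72 lower with library totals and to 49 and 69 with totals that left out the 20 most abundant loci. These counts are a description, since a single genotype has 1 library per condition. In CO12 alone 163 loci were 2-fold higher and 173 lower, and in Trichy 1 alone 162 and 125. The 59 shared higher loci had a median log2 fold change of 1.85 and a median abundance of 9.36 RPM, and 19 of them were called. The 50 shared lower loci had a median log2 fold change of -1.63 and a median abundance of 4.2 RPM, and 2 of them were called. Among the shared loci 28 of the 59 higher and 40 of the 50 lower had at least 90% unique reads. By sign alone, 350 loci were higher in both genotypes, 359 lower in both and 357 went apart. The within-genotype log2 ratios, which share no library, had Pearson's r = 0.447 and Spearman's rho = 0.445 over the 1066 loci, as a description of loci that share libraries, depth and, in part, reads.

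**Figure D3:**
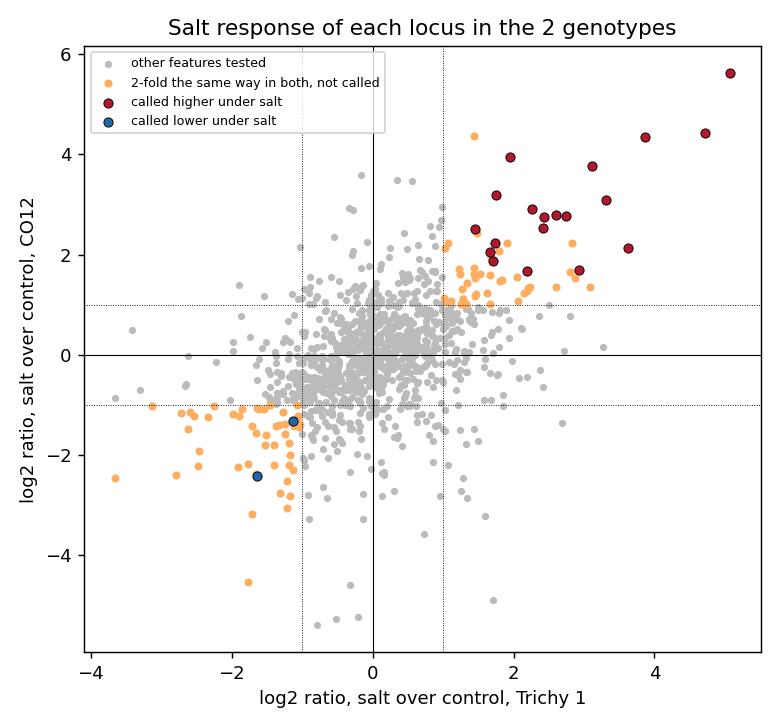
Log2 ratio of salt over control in Trichy 1 (x axis) and CO12 (y axis) for the 1066 loci tested; dotted lines mark 2-fold. Red and blue points are the 19 loci called higher and the 2 called lower, and orange points are the other loci at least 2-fold apart the same way in both genotypes.

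The way a locus passed the floor went with its direction. A locus that reached 20 reads only in a salt library had to be high there, and one that did so only in a control library could be low under salt for lack of depth. The 32 loci that passed only through a salt library had a median log2 fold change of 2.0 and held 23 of the 59 shared higher loci. They also held 7 of the 19 higher calls, LOC_Os02g41580 among them. The 490 loci that passed only through a control library had a median of -0.23 and held 39 of the 50 shared lower loci. They also held 1 of the 2 lower calls, LOC_Os01g55540. The 544 loci that passed in both conditions had a median of 0.22, with 32 shared higher and 11 shared lower loci, and 12 of the 19 higher and 1 of the 2 lower calls. The part of depth in the shared lower loci was not tested. With a floor on the mean over libraries of 5 RPM in its place, an alternative chosen after seeing the data, edgeR called 57 loci higher and 50 lower of 761, and 44 and 31 were shared at 2-fold.

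The shared counts also differed by abundance and uniqueness. Between 5 and 20 RPM, 41 of 458 loci were 2-fold higher and 12 lower in both genotypes, while under 5 RPM 8 of 316 were higher and 30 lower. Between 100 and 1000 RPM, 1 of 70 loci was 2-fold apart in both, in the lower direction. Loci with at least 90% unique reads had 28 shared higher and 40 shared lower loci of 748, with a median log2 fold change of -0.04. Fitted alone, with TMM factors of their own, the same 748 loci had 37 and 29 and a median of 0.08, so this balance turned with the scaling. Loci with under 50% unique reads had 17 and 8 of 205, with a median of 0.22, against 0.02 over all loci tested. The shared share was 12.6% in the shortest of 3 equal groups of loci by length and 8.45% in the longest, against 10.2% over all. By chromosome number it ran from 6.5% to 15.2%, with medians from -0.18 to 0.25.

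Some loci lay in runs of 5 or more tested neighbours whose identifier numbers were at most 50 apart, a grouping chosen after the data were seen. The 10 runs held 128 loci, of which a median of 6.11% of the reads was unique, against 99% for the 938 loci outside. Within the runs 14 loci were 2-fold higher and 1 lower in both genotypes, a shared share of 11.7% against 10.2% over all loci tested. Of the 128, 3 were called, a share near the 1.97% over all loci. Their median log2 fold change was 0.32, from 0.67 in CO12 and 0.05 in Trichy 1, against -0.05 outside runs (-0.13 in CO12 and 0.00 in Trichy 1). The run loci stood above the other loci by more in CO12 than in Trichy 1. The longest runs, on chromosomes 10 (29 loci) and 4 (28 loci), had medians of 0.45 and 0.39. LOC_Os04g16770, called lower, lies in the chromosome 4 run, where 14 loci were higher in both genotypes and 5 were lower. In 4 of the 10 runs more of the pooled reads were unique than not, and in the others fewer. Pooled shares weigh the most heavily read loci. In the 29-locus chromosome 10 run 97.4% of pooled reads were unique, against 0.794% for the median locus. These values were 57.3% and 0% in the chromosome 4 run and 88.7% and 15% in the chromosome 1 run. They were 93.4% and 93.1% in the 11-locus chromosome 12 run. Loci with few unique reads may not be separate observations.

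Of the 8 loci with the most reads, the test on total reads called LOC_Os04g16770 alone, and 3 others had the same sign in both genotypes. LOC_Os09g01000 on chromosome 9 took 34.4% of the reads in CO12 salt and 35.7% in Trichy 1 salt, against 21.3% in CO12 control and 29.4% in Trichy 1 control. Its share was above control in both genotypes. After TMM scaling, which differs from the shares, its log2 ratios were 0.78 in CO12 and 0.46 in Trichy 1. The fitted log2 fold change was 0.62 ± 0.22 (SE, adjusted p = 0.15 by edgeR). LOC_Os09g00999, its neighbour, had a fitted log2 fold change of 0.59 ± 0.23 (SE, adjusted p = 0.183 by edgeR). LOC_Os03g24640 on chromosome 3 took 3.43% and 3.29% in the salt libraries of CO12 and Trichy 1, against 7.81% and 6.59% in their control libraries. After TMM scaling its log2 ratios were -1.11 in CO12 and -0.82 in Trichy 1. Its adjusted p by edgeR was 0.0607 with total reads and 0.0494 with unique reads. The other 4 of the 8 had small ratios of opposite sign in the genotypes with total reads. With unique reads LOC_Os01g57968 (log2 ratios of 0.128 in CO12 and 0.265 in Trichy 1) and LOC_Os04g16722 (0.1 and 0.227) had the same sign in both. The widest 95% Wilson interval of these shares spanned 0.138 percentage points, which covers counting error only. The tables do not tell whether any of these 8 loci stands for ribosomal RNA that escaped the depletion.

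**Figure D4:**
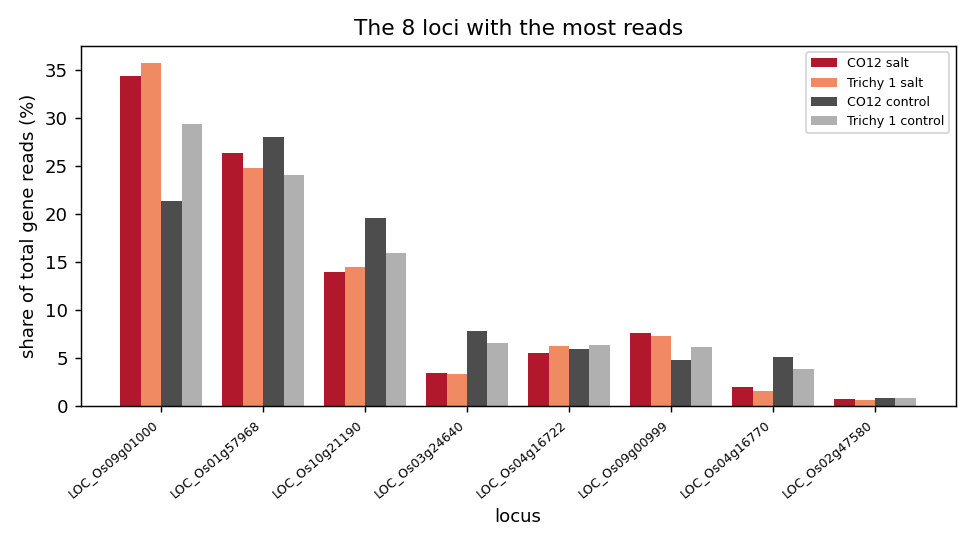
Share of total gene reads (y axis, percent) of the 8 most heavily read loci in the 4 libraries, with salt bars in red and orange and control bars in grey. LOC_Os09g01000 and LOC_Os09g00999 have taller salt bars in both genotypes, and LOC_Os03g24640 and LOC_Os04g16770 shorter ones.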

How the data were processed

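The members and groupings were chosen with earlier results of these data known. The authors deposited, per the file headers, whole-number counts of total and unique gene reads per locus and RPKM values, which equal the total reads scaled by library sum and gene length (largest relative difference 5.7e-08) and were not tested separately. Libraries were depleted of ribosomal RNA and sequenced on an Ion Proton, per the labels' protocols. The aligner, the counter and the build: not given in the sources used here. Salt was tested against control across all loci with 20 or more reads in any library, with genotype as block, in edgeR 4.0.16 (R 4.3.3): TMM factors, glmQLFit and glmQLFTest, Benjamini-Hochberg adjustment, with 1 residual degree of freedom. Moderation added 8.64 prior degrees of freedom, so the spread used came mostly from the loci together. SE is the log2 fold change divided by the square root of F. Libraries of the same genotype were paired by the genotype in the labels; their deviations from the group means correlated at 0.005 over 1066 loci. Within-genotype log2 ratios used a prior count of 0.5 scaled to depth, and fold intervals are exact binomial ones for counting error only. PCR copies count as reads. Named loci are, by the rule, the 2 highest called loci with at least 50% of their reads unique and the 2 lowest called. The rule's condition of a product name could not be applied, and the lowest loci are named regardless of unique share because only 2 were called. The 8 most heavily read loci were added. The 30 pathway lists were matched to no locus because no annotation was used. DESeq2 1.42.0 was an alternative.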

Additional observations from a re-analysis of the deposited data

Results flagged for a closer look

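Among the 8 most heavily read loci, 4 had salt over control ratios of opposite sign in the genotypes after TMM scaling; the differences were not tested, since each genotype has 1 library per condition. LOC_Os01g57968 had a log2 ratio of -0.01 in CO12 and 0.225 in Trichy 1. With unique reads it had 0.128 in CO12 and 0.265 in Trichy 1, the same sign. LOC_Os10g21190 had -0.417 in CO12 and 0.039 in Trichy 1. LOC_Os04g16722 had -0.035 in CO12 and 0.172 in Trichy 1, and with unique reads 0.1 in CO12 and 0.227 in Trichy 1, the same sign. LOC_Os02g47580 had 0.073 in CO12 and -0.327 in Trichy 1.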

How the results depend on the processing

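The 4 loci named by the rule kept their direction in all 53 values from other settings, and the adjusted p exceeded 0.05 in 14 of these. For LOC_Os02g41580 it ran from 1.37e-08 to 0.107, for LOC_Os11g26850 from 4.52e-07 to 0.144, for LOC_Os01g55540 from 0.00039 to 0.221 and for LOC_Os04g16770 from 4.98e-06 to 0.273. The lowest adjusted p of each of the 4 came with library totals or with no floor, where the prior degrees of freedom were infinite. There a locus's own spread between the genotypes was not used. The counts of calls (19 higher, 2 lower) were not stable. They were 58 and 44 with library totals, 52 and 19 with median-of-ratios size factors, 40 and 12 with unique reads, 29 and 9 without the replicate block, 49 and 17 at an adjusted p under 0.1, 57 and 50 with a mean of at least 5 RPM, and 9 and 0 over loci with at least 90% unique reads (167 at an unadjusted p under 0.05), the last and the RPM floor chosen after seeing the data. With totals that left out the 20 most abundant loci edgeR called 0 and 0, with 239 loci at an unadjusted p under 0.05, against 236 in the reported fit. DESeq2, with its own size factors, called 18 and 3, with 16 of the 21 reported calls among them. Without 1 library at a time, fitted without the block, 0 to 67 were called higher and 0 to 20 lower; without the Trichy 1 salt library none was called, with 130 at an unadjusted p under 0.05. The cause of the moves was not tested, except that a higher floor, a stricter fold and the unique-read limits leave fewer loci by construction. A floor of 100 reads called 22 higher and 17 lower, but only 4 of the 21 reported calls were among the loci tested there. LOC_Os02g41580 and LOC_Os11g26850 were not tested at that floor. No floor called 13 higher and 42 lower, with 13 of the 21 reported calls kept, so the balance of higher and lower calls turned. The median log2 fold change of all loci was 0.02 as reported, -0.11 with library totals and -0.08 with totals without the 20 loci. Loci 2-fold apart the same way in both genotypes (59 higher, 50 lower) numbered 7 and 9 with a floor of 100 reads, 733 and 3168 with no floor, 12 and 3 at 4-fold, and 37 and 29 over loci with at least 90% unique reads. With a mean of at least 5 RPM 31 were lower. More were lower than higher with library totals (50 and 72) and with totals without the 20 loci (49 and 69). These and the other counts not given here, 15 in all, stayed within 1.5 times the reported ones. Medians of pathway lists were not run because no list was matched. Depth limits the loci under the floor, which were not tested.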
